A study of Mus musculus with 10 samples.

Results

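The cation-chloride cotransporters of the SLC12 family and the chloride channel ClC-2 were examined in bulk RNA from the mouse dentate gyrus, home of the granule neurons of the hippocampus. The members were chosen by gene symbol. They are Slc12a2, which encodes NKCC1, Slc12a5, which encodes KCC2, Slc12a4, which encodes KCC1, Slc12a7, which encodes KCC4, and Clcn2, which encodes ClC-2. These 5 genes were found among 48526 gene identifiers, and all 5 passed the filter that 17007 genes passed (10 or more normalized counts on average). In the Sox11 group, C57Bl/6 mice received an adeno-associated virus (AAV) of serotype 9 that encodes the transcription factor Sox11, injected into the dentate gyrus of either hemisphere. In the GFP group, mice of the same strain received the same serotype encoding green fluorescent protein. Each group had 5 mice and the animals were 8 weeks old. The labels give a virus volume of 1 µl for every sample. The sources used here give no promoter for the transgenes, no share of transduced cells and no time between injection and dissection. The tissue holds transduced and other cells together.

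Neurons set their internal chloride concentration mainly with transporters of opposite direction. NKCC1 carries sodium, potassium and chloride into the cell and dominates in immature neurons, where GABA can depolarize. KCC2 carries potassium and chloride out, is largely restricted to neurons and becomes abundant as neurons mature, after which GABA-A receptors mostly hyperpolarize or shunt. KCC1 and KCC4 are extruders found in many cell types, and ClC-2 is a chloride channel that opens on hyperpolarization and is present in neurons and glia. The comparison asks whether the transcripts of this set differ when Sox11, a factor of newborn neurons, is supplied by the virus.

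Values are normalized counts, that is, reads per gene divided by a factor for each library, and libraries carry the numbers of the deposited table (Sox11 1, 2, 3, 6 and 7, GFP 1, 3, 4, 5 and 6). Between 45100154 and 68769808 reads per library were recovered from these values, and between 324 and 30431 of them fell on a member gene in a library. The gene Sox11 lay between 9803 and 20434 normalized counts in the Sox11 libraries and between 1364 and 1634 in the GFP libraries, as labelled, and reads of the viral and the mouse copy are counted together. All 8 markers of dentate granule neurons were measured, with summed levels of 69968 to 97318 normalized counts in Sox11 libraries and 72140 to 97751 in GFP libraries. GFP 3 stood apart from the other libraries. Its 14 markers of the choroid plexus, the epithelium that secretes cerebrospinal fluid, summed to 398133 normalized counts, against 848 to 2778 in the Sox11 libraries and 1920 to 3523 in the other GFP libraries. None of the 14 was at 0 in every library, and Tmem72 was at 0 in some. Each member is therefore given with and without GFP 3.

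Of the 5 members, Slc12a5 fell, Clcn2 rose, and Slc12a2, Slc12a4 and Slc12a7 did not pass the threshold (limma's moderated test over all 17007 genes, Benjamini-Hochberg adjusted p below 0.05). For comparison, 19.0% of all tested genes passed, 9.65% higher and 9.36% lower in the Sox11 libraries, so 2 of 5 members past the threshold is a count on few genes beside a broad change. For these 2 members every Sox11 library lay on one side of every GFP library, which held for 15.9% of all tested genes.

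**Figure D1:**
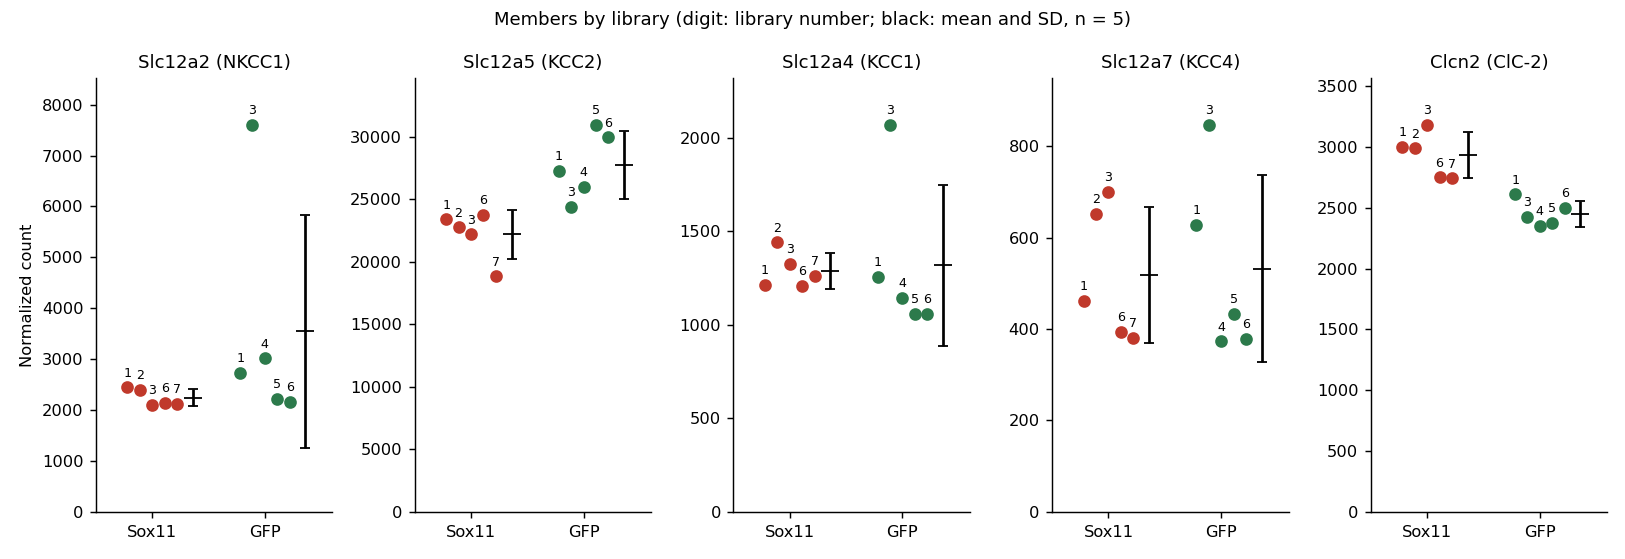
Normalized counts of each member (vertical axis, from 0) in the 5 Sox11 libraries (red) and the 5 GFP libraries (green), with library numbers beside the points and the mean and SD in black. Every Sox11 point lies below every GFP point for Slc12a5 and above every GFP point for Clcn2, while GFP 3 is the highest point of Slc12a2 (7602), Slc12a4 (2067) and Slc12a7 (847).

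Slc12a5, the neuronal chloride extruder KCC2 (ENSMUSG00000017740, chromosome 2, 164960802 to 164999731, plus strand, GRCm38), was the most abundant member. It had 23374, 22744, 22181, 23743 and 18828 normalized counts in Sox11 1, 2, 3, 6 and 7, against 27263, 24372, 25979, 30936 and 29940.2 in GFP 1, 3, 4, 5 and 6. Sox11 7 was the lowest library, and GFP 3, the lowest GFP library, lay close above Sox11 6. The means were 22174 ± 1963 in Sox11 libraries and 27698 ± 2726 in GFP libraries (SD, n = 5 each). The log2 fold change was -0.32 (SE 0.08, 95% interval -0.50 to -0.14, adjusted p = 0.0185 in limma), a level that fell by 19.9%. Among the genes that passed, 49.2% had a smaller absolute log2 fold change. The call held with each library left out (adjusted p of 0.00874 to 0.0461 in limma). Without GFP 3 the log2 fold change was -0.36 (adjusted p = 0.00874 in limma), in a fit where 19.2% of all genes passed.

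Clcn2, the channel gene (ENSMUSG00000022843, chromosome 16, 20702964 to 20717746, minus strand), had 3000.05, 2987, 3180.4, 2748 and 2740.1 normalized counts in Sox11 1, 2, 3, 6 and 7, against 2609, 2423, 2349, 2374 and 2495 in GFP 1, 3, 4, 5 and 6. The Sox11 libraries numbered 1 to 3 were the highest and all 5 lay above GFP 1, the highest GFP library. The means were 2931 ± 187 in Sox11 libraries and 2450.2 ± 105 in GFP libraries (SD, n = 5 each). The log2 fold change was 0.26 (SE 0.05, 95% interval 0.14 to 0.37, adjusted p = 0.00563 in limma), or 19.5% higher. Among the genes that passed, 30.7% had a smaller absolute log2 fold change. Clcn2 stayed past the threshold with each library left out (adjusted p of 0.00601 to 0.0170 in limma). Without GFP 3 the log2 fold change was 0.25 (adjusted p = 0.0107 in limma). Genes of the opposite strand cover 2.77% of its exonic bases. Sox11 3, which had the most Sox11 transcript (20434 normalized counts), was the highest Sox11 library for Clcn2 and the second lowest for Slc12a5. Sox11 7, the lowest Sox11 library for both genes, had 10552 normalized counts of Sox11, near the 10414 of Sox11 2. A relation to the level of Sox11 was not tested.

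The start regions of these 2 genes are shown because they are the members that passed the test. RefSeq promoter windows of the GRCm38.p6 build, 250 bases before to 50 after a start site, were at hand for 4 of the 5 members, with none for Slc12a2. Slc12a5 has 2 windows, one for the upstream start that gives the KCC2a transcript (chr2:164960596-164960895, plus strand) and one for the downstream start of KCC2b (chr2:164967738-164968037, plus strand). The counts are per gene and do not separate them. Clcn2 has 1 (chr16:20716587-20716886, minus strand). Each is printed 5′ to 3′ on the strand of its gene, with capitals for matches, on either strand, to the E-box CACGTG, the EGR motif GCGNGGGCG, or the SOX motifs ACAAAG and ACAATG.
Slc12a5 upstream start: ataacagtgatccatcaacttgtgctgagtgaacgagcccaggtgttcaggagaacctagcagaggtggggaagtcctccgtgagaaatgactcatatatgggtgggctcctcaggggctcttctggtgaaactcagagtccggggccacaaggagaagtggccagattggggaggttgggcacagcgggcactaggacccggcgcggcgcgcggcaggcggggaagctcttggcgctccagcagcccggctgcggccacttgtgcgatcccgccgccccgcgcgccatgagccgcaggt
Slc12a5 downstream start: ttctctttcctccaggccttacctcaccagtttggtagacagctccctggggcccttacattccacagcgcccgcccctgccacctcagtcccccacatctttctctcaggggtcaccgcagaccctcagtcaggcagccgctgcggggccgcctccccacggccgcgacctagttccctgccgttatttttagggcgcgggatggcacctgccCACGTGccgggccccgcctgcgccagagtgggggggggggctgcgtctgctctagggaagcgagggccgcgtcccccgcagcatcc
Clcn2 start: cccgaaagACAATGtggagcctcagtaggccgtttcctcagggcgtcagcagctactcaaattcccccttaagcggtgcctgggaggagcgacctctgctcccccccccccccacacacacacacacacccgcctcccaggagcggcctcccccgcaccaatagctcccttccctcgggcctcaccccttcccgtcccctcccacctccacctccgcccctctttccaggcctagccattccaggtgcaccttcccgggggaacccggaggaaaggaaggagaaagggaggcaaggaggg
The downstream Slc12a5 window holds 1 E-box, whose first base is at position -36, counted from -1 at the base before the start. An E-box occurs in 7.15% of all 32851 windows. Both windows of Slc12a7, a member that did not pass, overlap and hold one and the same E-box, at positions -1 and -38 from their starts, and the window of Slc12a4 holds none of the motifs. The Clcn2 window holds 1 ACAATG match at position -242, a motif in 12.6% of all windows. Neither gene's windows held GCGNGGGCG (5.55% of all) or ACAAAG (18.7%), and the upstream Slc12a5 window held none of the 4 motifs. No capitals overlap one another. G and C made up 63.7% of the upstream Slc12a5 window, 68.3% of the downstream one and 65.7% of the Clcn2 window, against a median of 52.7% over all windows.

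Slc12a2, the importer NKCC1 (ENSMUSG00000024597, chromosome 18, 57878678 to 57946821, plus strand), had 2444, 2395, 2099.7, 2139 and 2116 normalized counts in Sox11 1, 2, 3, 6 and 7, against 2727, 7602, 3016, 2221 and 2160.02 in GFP 1, 3, 4, 5 and 6. The 5 Sox11 libraries lay close together, GFP 3 was far above all others, and the groups overlapped. The means were 2239 ± 167 in Sox11 libraries and 3545 ± 2295 in GFP libraries (SD, n = 5 each), or 2531 ± 411 in the 4 GFP libraries without GFP 3. The log2 fold change was -0.49 (SE 0.31, 95% interval -1.18 to 0.20, adjusted p = 0.325 in limma). Without GFP 3 it was -0.17 (SE 0.10, 95% interval -0.39 to 0.05, adjusted p = 0.287 in limma). The summed choroid plexus markers moved with this gene in GFP 3, as given above, and in the remaining libraries the sums were 848 to 2778 in Sox11 libraries and 1920 to 3523 in GFP libraries. Without GFP 3, 2 of the 14 markers were lower in Sox11 libraries, Kl, which neurons also express (log2 fold change -1.09, adjusted p = 0.000176 in limma), and Prlr (-1.42, adjusted p = 0.00476 in limma). Ttr, the most abundant marker in GFP 3, differed by 0.01 in that fit and the median of the list was -0.06. Oligodendrocyte marker sums ran in the order of Slc12a2 within the 5 Sox11 libraries, from 160627 in Sox11 1 to 66375 in Sox11 3. They also did so in the 4 GFP libraries without GFP 3, from 141484 in GFP 4 to 76688 in GFP 6. GFP 3, highest for Slc12a2, had a sum of 138718, below that of GFP 4. This order was noticed after the values were seen. The part of either marker list in the difference of Slc12a2 was not tested.

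Slc12a4, the widely expressed extruder KCC1 (ENSMUSG00000017765, chromosome 8, 105943590 to 105966097, minus strand), had 1212, 1439, 1323, 1208 and 1258 normalized counts in Sox11 1, 2, 3, 6 and 7, against 1255, 2067, 1144, 1059 and 1056 in GFP 1, 3, 4, 5 and 6. GFP 3 was again the highest library, and the other 4 GFP libraries reached into the lower part of the Sox11 range only with GFP 1. The means were 1288 ± 96.3 in Sox11 libraries and 1316 ± 428 in GFP libraries (SD, n = 5 each). Its log2 fold change was 0.02 (SE 0.17, 95% interval -0.35 to 0.39, adjusted p = 0.968 in limma). Without GFP 3 the GFP mean was 1129 ± 93.7 (SD, n = 4) and the log2 fold change 0.19 (SE 0.07, 95% interval 0.03 to 0.35), which did not pass either (adjusted p = 0.0886 in limma). An opposite-strand gene, Gm16156, covers 8.44% of its exonic bases, and the sources used here do not say whether the counting used strand.

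Slc12a7, the extruder KCC4 (ENSMUSG00000017756, chromosome 13, 73733094 to 73816754, plus strand), had 462, 652, 699.7, 395 and 381 normalized counts in Sox11 1, 2, 3, 6 and 7, against 628, 847, 373, 433 and 379 in GFP 1, 3, 4, 5 and 6. The 5 libraries numbered 1 to 3, of either group, lay between 462 and 847, and the 5 numbered 4 and above between 373 and 433, so the values separated by library number and not by virus. The means were 518 ± 148 in Sox11 libraries and 532 ± 204 in GFP libraries (SD, n = 5 each). The log2 fold change was -0.01 (SE 0.26, 95% interval -0.59 to 0.58, adjusted p = 0.991 in limma), and 0.18 without GFP 3 (SE 0.22, adjusted p = 0.640 in limma). The 9 markers of pericytes and meningeal fibroblasts summed to 14087 to 21181 normalized counts in GFP 1, GFP 3, Sox11 2 and Sox11 3, the libraries with the most Slc12a7, and to 5872 to 10227 in the other 6. Their part in the spread was not tested.

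**Figure D2:**
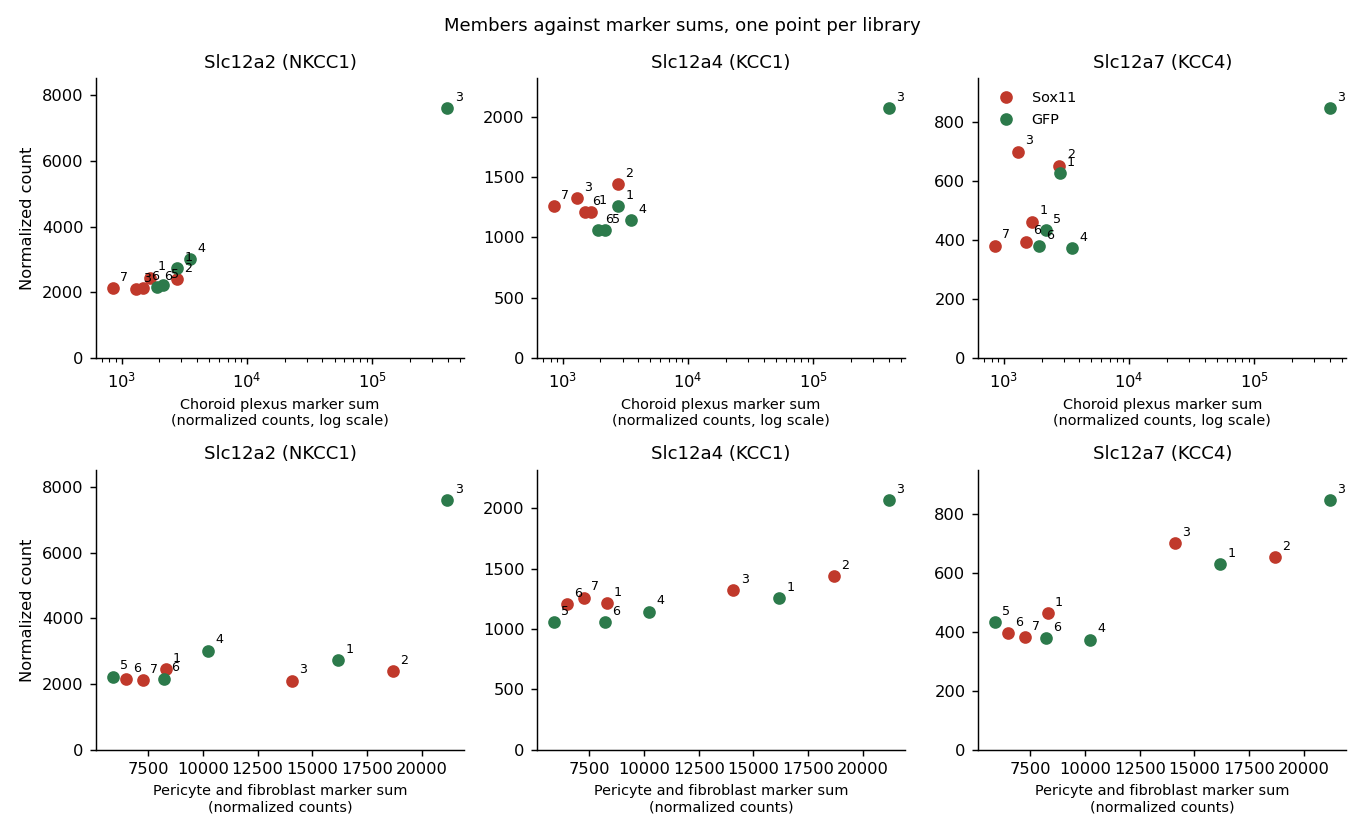
Normalized counts of Slc12a2, Slc12a4 and Slc12a7 (vertical axes, from 0) against the summed normalized counts of 14 choroid plexus markers (upper row, log axis) and of 9 pericyte and fibroblast markers (lower row, linear axis), 1 point per library, Sox11 in red and GFP in green. GFP 3 stands alone at 398133 in the upper row, and Slc12a7 is highest in the 4 libraries at 14087 and above in the lower row.

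The division by library number was used to look at the 2 calls within each part. The sources used here do not say what the numbers stand for, and the division came from an earlier look at these data. Among the libraries numbered 1 to 3 (3 Sox11, 2 GFP), the log2 fold change of Slc12a5 was -0.18 (adjusted p = 0.128 in limma), and among those numbered 4 and above (2 Sox11, 3 GFP) it was -0.45 (adjusted p = 0.0365 in limma). That of Clcn2 was 0.28 (adjusted p = 0.0505 in limma) and 0.19 (adjusted p = 0.0700 in limma) in the same order. For both genes the groups did not overlap over all libraries, so the direction within either part was fixed in advance. The difference between the parts was not tested. With the division as a covariate over all libraries both genes passed, with log2 fold changes of -0.31 for Slc12a5 (adjusted p = 0.0192 in limma) and 0.24 for Clcn2 (adjusted p = 0.00232 in limma). With the library number itself as a block, which leaves the 3 pairs numbered 1, 3 and 6, neither passed (log2 fold change -0.23, adjusted p = 0.204 for Slc12a5, and 0.24, adjusted p = 0.209 for Clcn2, in limma). In that fit 0.288% of all genes passed, 0.265% higher and 0.0235% lower.

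**Figure D3:**
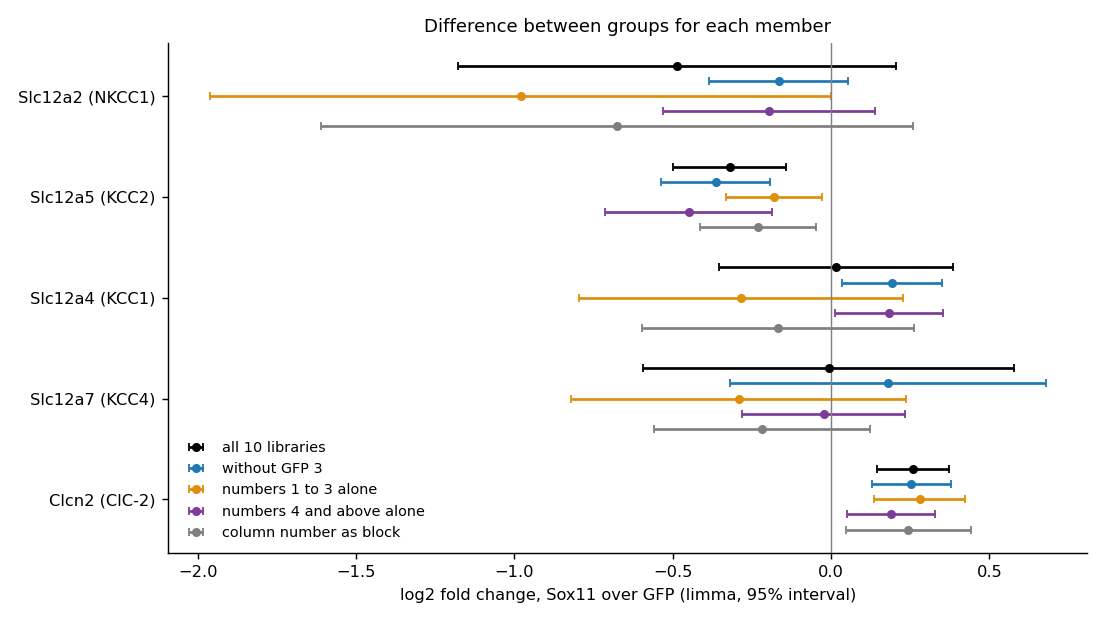
Log2 fold change of Sox11 over GFP libraries for each member (horizontal axis, limma, bars for 95% intervals) over all 10 libraries, without GFP 3, within either part by library number, and with library number as a block. The intervals of Slc12a5 lie below 0 and those of Clcn2 above 0 in all 5 fits, while the estimates of Slc12a4 fall on either side of 0.

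In bulk tissue, fewer cells of a type and less RNA per cell cannot be told apart. Beside the decrease of Slc12a5, the 8 interneuron markers summed to 27161 to 33997 normalized counts in Sox11 libraries and 33296 to 39718 in GFP libraries, with 2 of 8 lower and none higher. Sox11 7 was lowest in that sum as in Slc12a5. Sox11 6, the second lowest in the sum (32103), was the highest Sox11 library for Slc12a5 (23743). Of the 8 granule neuron markers 2 were lower and none higher, and of the 8 tested markers of CA1 and CA3 pyramidal neurons none passed (20985 to 30221 normalized counts in Sox11 libraries, 19058 to 28036 in GFP libraries). Of the 8 immature neuron markers 4 were higher, with sums of 44328 to 58283 and 21835 to 29048 in Sox11 and GFP libraries. The 4 were Dcx, Tubb3, Stmn1 and Dpysl5. Neurod1, Igfbpl1, Sox4 and Calb2 did not pass (log2 fold changes of 0.01, 0.16, -0.17 and 0.06 in limma), so the list did not move as a whole. Beside the increase of Clcn2, the 7 astrocyte markers summed to 100988 to 119402 normalized counts in Sox11 libraries and 92946 to 107978 in GFP libraries, with 4 of 7 higher. Oligodendrocyte markers (0 of 8 past the threshold) summed to 66375 to 160627 in Sox11 libraries and 76688 to 141484 in GFP libraries. The part of these cell types in the results was not tested. Of the other marker lists, 2 of 7 for microglia were higher and 3 of 6 for mossy cells lower, and none passed of 6 for oligodendrocyte precursors, 7 for endothelium, 9 for pericytes and fibroblasts, 14 for the choroid plexus and 5 for ependyma. Without GFP 3 the counts were 2 of 14 lower for the choroid plexus, 3 of 8 lower for interneurons, 3 of 7 higher for astrocytes and 1 of 7 higher for microglia, with those of the other lists the same. In edgeR over all libraries 3 of the 14 choroid plexus markers were lower and 3 of the 7 microglia markers higher. In that fit 1749 of 17007 tested genes were higher and 1523 lower. In limma over all libraries 9.65% of all tested genes were higher and 9.36% lower.

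Levels were compared between members per kilobase of exon. Slc12a5 led in each library, with 2978 ± 264 normalized counts per kilobase in Sox11 libraries and 3719 ± 366 in GFP libraries (SD, n = 5 each), a level above that of 96.3% of tested genes. Clcn2 followed with 487 ± 31.1 in Sox11 libraries and 407 ± 17.4 in GFP libraries. Slc12a4 had 301 ± 22.5 in Sox11 libraries and 308 ± 99.9 in GFP libraries, Slc12a2 had 205 ± 15.3 and 325 ± 210.2, and Slc12a7 was lowest with 40.9 ± 11.7 and 42.0 ± 16.1, each in the same order of groups. In the Sox11 libraries the 5 ranges did not touch. In the GFP libraries the ranges of Clcn2, Slc12a2 and Slc12a4 overlapped, and Slc12a2 exceeded Slc12a4 in 2 of 5. The place of Slc12a2 depended on the length used: per kilobase of coding sequence it lay above Slc12a4 in all 5 Sox11 libraries.

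The ratio of importer to extruder, Slc12a2 over Slc12a5 per kilobase of exon, is given as a description of the tissue. The libraries pool all cells, so the transcripts need not come from the same cells and the ratio is not one within neurons. It was 0.0713, 0.0718, 0.0646, 0.0614 and 0.0766 in Sox11 1, 2, 3, 6 and 7, against 0.0682, 0.213, 0.0792, 0.0490 and 0.0492 in GFP 1, 3, 4, 5 and 6. The Sox11 libraries lay within the range of the GFP libraries. On the log2 scale the ratio averaged -3.86 ± 0.13 in Sox11 libraries and -3.69 ± 0.87 in GFP libraries (SD, n = 5 each), a difference of -0.17. Without GFP 3 the GFP mean was -4.06 ± 0.35 (SD, n = 4) and the difference 0.20, so the sign of the difference rests on GFP 3. Of the summed level per kilobase of the 3 extruders among the members, Slc12a5 made up 88.6% to 91.0% in Sox11 libraries and 85.6% to 93.7% in GFP libraries.

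**Figure D4:**
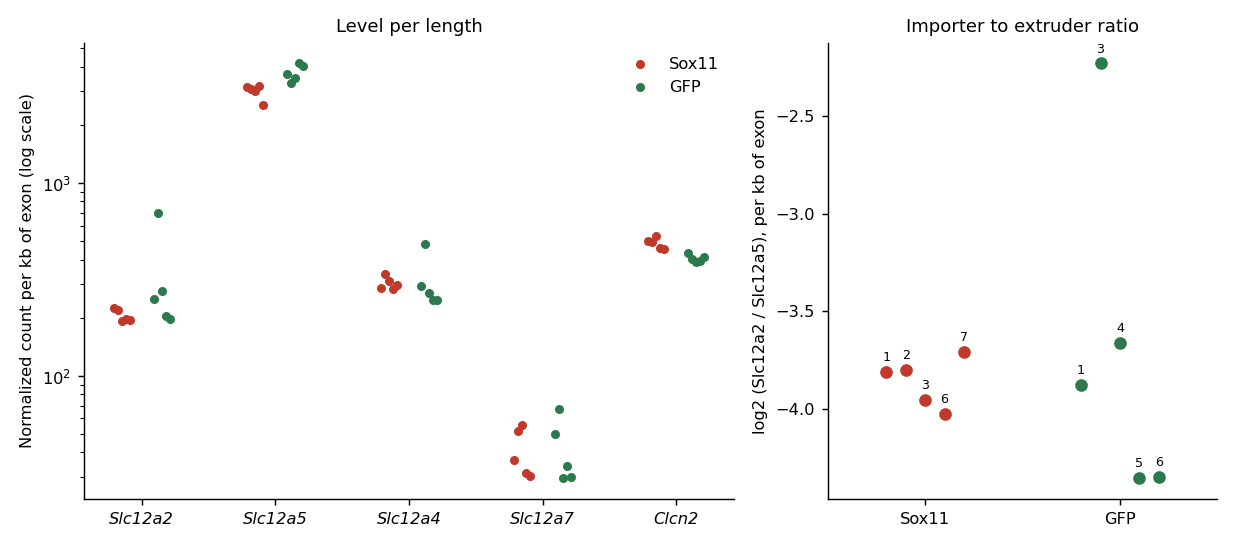
Left, normalized counts per kilobase of exon of each member (log axis), and right, log2 of the ratio of Slc12a2 to Slc12a5 per kilobase, 1 point per library, Sox11 in red and GFP in green. Slc12a5 lies at 2528 to 4154 and the other members below 700, and the ratio of GFP 3 (-2.23) is above all other libraries.

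The patterns most like each member over the 10 libraries were sought among 14255 genes averaging 50 or more normalized counts, by Pearson's r of log2 values. These correlations are descriptions: the libraries share the 2 groups and the library numbers, and the third-best r of a gene had a median of 0.95 over all genes. For Slc12a5 the closest were Klf16, a Krüppel-like transcription factor (r = 0.98), Chrd, the BMP antagonist chordin (0.98), and Lypd1 (0.98), all 3 lower in Sox11 libraries (log2 fold changes -0.37, -0.41 and -0.53). With the group means removed their r was 0.95, 0.95 and 0.94. For Clcn2 they were Rpl41, a ribosomal protein gene, Foxp4, a forkhead factor, and Arhgef1 (r = 0.98 for each, and 0.94, 0.94 and 0.90 with group means removed), which rose by 0.23, 0.50 and 0.30 on the log2 scale. For Slc12a2 they were Unc13b (0.99), Enpp2, which encodes autotaxin (0.99), and Slc4a5 (0.98), a bicarbonate transporter on the choroid plexus list, and without GFP 3 these became 0.98, 0.87 and 0.80. For Slc12a4 they were Antxr1, Mfrp and Cd63 (0.98, 0.98 and 0.97), and for Slc12a7 Crtap, Gas1 and Hcar1 (0.98, 0.97 and 0.97). None of the genes nearest to Slc12a2, Slc12a4 or Slc12a7 passed the test between the groups. Among the members, Slc12a2 and Slc12a4 had an r of 0.83 over the 10 libraries, which became -0.0020 without GFP 3. For Slc12a4, r was 0.80 with Slc12a7, 0.076 with Clcn2 and -0.38 with Slc12a5 over the 10 libraries, and 0.72, 0.78 and -0.72 in the same order without GFP 3, so the values with Clcn2 and Slc12a5 change with that library.

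Other genes that handle chloride were taken as 7 lists of 94 symbols, of which 86 were tested. Of these 12 rose and 12 fell (14% each, against 9.65% and 9.36% of all tested genes), and 62 did not pass. The median log2 fold change was -0.03, against -0.01 over all tested genes. Without GFP 3 the counts were 12 higher and 15 lower, where 9.23% and 9.99% of all genes passed. With the library number as a block 0 rose and 1 fell in limma, beside 0.265% and 0.0235% of all genes. Of the 24 genes that passed, 18 kept the call with each library left out (highest adjusted p 0.0408 in limma), and 24 passed with the division by number as a covariate.

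Among the other SLC12 carriers Slc12a9, a family member of unsettled transport function, rose by 0.28 on the log2 scale (SE 0.07), with 1285 ± 102 normalized counts in Sox11 libraries and 1053 ± 68.3 in GFP libraries (SD, n = 5 each). Slc12a8 did not pass, and Slc12a1 and Slc12a3, the kidney cotransporters, averaged under 10 normalized counts and were not tested.

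WNK kinases and their effectors SPAK (Stk39) and OSR1 (Oxsr1) phosphorylate these transporters, which activates NKCC1 and inhibits the extruders. All 13 genes of this list were tested, and 1 rose, 1 fell and 11 did not pass. Klhl2, an adaptor that directs WNK kinases to degradation, had 14125, 14207, 15799, 14256 and 15108 normalized counts in Sox11 1, 2, 3, 6 and 7, against 17441, 17228, 21134, 20817 and 20500.5 in GFP 1, 3, 4, 5 and 6. All Sox11 libraries lay below all GFP libraries, and Klhl2 fell by 0.40 on the log2 scale (SE 0.07, adjusted p = 0.0026 in limma). Wnk2 rose by 0.21 (SE 0.06, adjusted p = 0.0325 in limma), and leaving out any one of GFP 1, 3 and 4 and Sox11 1, 2, 3 and 6 ended the call (adjusted p up to 0.0788 in limma). Stk39 had 2578, 2539, 2319, 2456 and 2479.8 normalized counts in Sox11 1, 2, 3, 6 and 7, against 2947, 5259, 3346, 2898 and 2844 in GFP 1, 3, 4, 5 and 6. The groups did not overlap, and GFP 3 was far the highest. Its log2 fold change was -0.44 (SE 0.15, adjusted p = 0.0663 in limma), and -0.28 without GFP 3, which passed (adjusted p = 0.0063 in limma). Cab39l, a scaffold of these kinases, and Klhl3, an adaptor like Klhl2, did not pass over all libraries. Cab39l had 5758 normalized counts in GFP 3, and its log2 fold change was -0.57 (SE 0.34, adjusted p = 0.293 in limma), and -0.20 without GFP 3 (adjusted p = 0.00715 in limma). Klhl3 differed by -0.28 on the log2 scale (SE 0.11, adjusted p = 0.105 in limma), and by -0.37 without GFP 3 (adjusted p = 0.00939 in limma). These 3 genes were singled out after their values were seen. Wnk1, Wnk3 and Oxsr1 had log2 fold changes of -0.13, 0.01 and -0.04 and did not pass.

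Of the 9 tested relatives and partners of ClC-2, 2 rose and 1 fell. Clcn1, best known as the chloride channel of skeletal muscle, was low but rose to 62.5 ± 4.99 normalized counts in Sox11 libraries, against 33.7 ± 3.23 in GFP libraries (SD, n = 5 each), 0.87 higher on the log2 scale (SE 0.13, adjusted p = 0.00101 in limma). The opposite-strand gene Fam131b covers 8.20% of its exonic bases. Clcn7, the lysosomal exchanger, rose by 0.16 (SE 0.05), and Clcn3, an endosomal exchanger, fell by 0.19 (SE 0.06). Leaving out any one of GFP 1, 3, 4 and 5 and Sox11 1, 2, 3 and 7 ended the call of Clcn7 (adjusted p up to 0.0876 in limma), and any one of GFP 4, 5 and 6 and Sox11 1, 2 and 3 that of Clcn3 (up to 0.105 in limma). The glial partners of ClC-2, Hepacam (GlialCAM) and Mlc1, had log2 fold changes of 0.13 and 0.15 and did not pass (adjusted p = 0.140 and 0.0948 in limma).

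Of 17 tested genes of other anion channels 4 rose and 2 fell. Tmem206, the proton-activated chloride channel, rose by 0.46 on the log2 scale (SE 0.06), Lrrc8d, a subunit of the volume-regulated anion channel, by 0.44 (SE 0.05), Ano8 by 0.42 (SE 0.10) and Ttyh3, of the tweety family, by 0.42 (SE 0.08). Ano3, an anoctamin, had the steepest decrease of the 24 genes, with 9233 ± 1198 normalized counts in Sox11 libraries and 15275 ± 2076 in GFP libraries (SD, n = 5 each), a change of -0.72 on the log2 scale (SE 0.11, adjusted p = 0.00101 in limma), and it was the gene that passed with the block (adjusted p = 0.0414 in limma). Lrrc8c, another subunit of the volume-regulated channel, fell by 0.35 (SE 0.10), and its call ended when any one of GFP 3, 4, 5 and 6 and Sox11 2, 3 and 7 was left out (adjusted p up to 0.0861 in limma).

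Of 18 tested bicarbonate and anion exchangers and carbonic anhydrases, 1 rose and 4 fell. Slc4a10, a sodium-driven bicarbonate transporter of neurons, had 9883, 10959, 10043, 10544 and 10736 normalized counts in Sox11 1, 2, 3, 6 and 7, against 14146, 18255, 15434, 16907 and 16326 in GFP 1, 3, 4, 5 and 6. The groups were far apart, and the gene fell by 0.63 on the log2 scale (SE 0.07, adjusted p = 0.000126 in limma). The membrane-bound carbonic anhydrases Car4 and Car12 fell by 0.48 (SE 0.08) and 0.51 (SE 0.15), and Car10, a catalytically inactive relative, fell by 0.51 (SE 0.12). Slc26a6, an anion exchanger, rose by 0.39 (SE 0.07). The call of Car12 ended when any one of GFP 3, 5 and 6 and Sox11 1, 2, 3 and 7 was left out (adjusted p up to 0.0900 in limma). Car7, the cytosolic anhydrase of mature neurons, differed by -0.41 on the log2 scale (SE 0.14) and did not pass (adjusted p = 0.0651 in limma).

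Of 20 partners and regulators of KCC2, 3 rose and 3 fell. Usf1, which encodes an E-box-binding factor, rose to 3731 ± 188 normalized counts in Sox11 libraries, against 2795 ± 132 in GFP libraries (SD, n = 5 each), 0.42 higher on the log2 scale (SE 0.05, adjusted p = 0.000262 in limma). Rest, the repressor of neuronal genes that is known to bind Slc12a5, rose by 0.41 (SE 0.10). Its groups overlapped, with 500.5 normalized counts in Sox11 6 and 540.2 in GFP 3. Whether Usf1 or Rest has a part in the decrease of Slc12a5 was not tested. Arhgef7, a KCC2-binding exchange factor, rose by 0.27 (SE 0.07). Pacsin1, a KCC2-binding endocytic adaptor, fell by 0.51 (SE 0.07), Capn1, the protease calpain-1 that can cleave KCC2, by 0.47 (SE 0.07), and Kcnk9, a leak potassium channel, by 0.41 (SE 0.11). The call of Kcnk9 ended without GFP 1, 5 or 6 (adjusted p up to 0.0577 in limma). Genes of the opposite strand cover 11.8% of the exonic bases of Capn1, and 7.13% of those of Usf1 are shared on the same strand. Egr4 and Bdnf, which act on Slc12a5 expression in other settings, and the KCC2 partner Neto2 had log2 fold changes of 0.16, -0.03 and 0.13 and did not pass. Of the 6 subunits of the sodium-potassium pump, which builds the ion gradients that drive the cotransporters, Atp1b1 fell by 0.22 (SE 0.05, adjusted p = 0.0105 in limma) and 5 did not pass. An opposite-strand gene covers 18.7% of the exonic bases of Atp1b1.

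**Figure D5:**
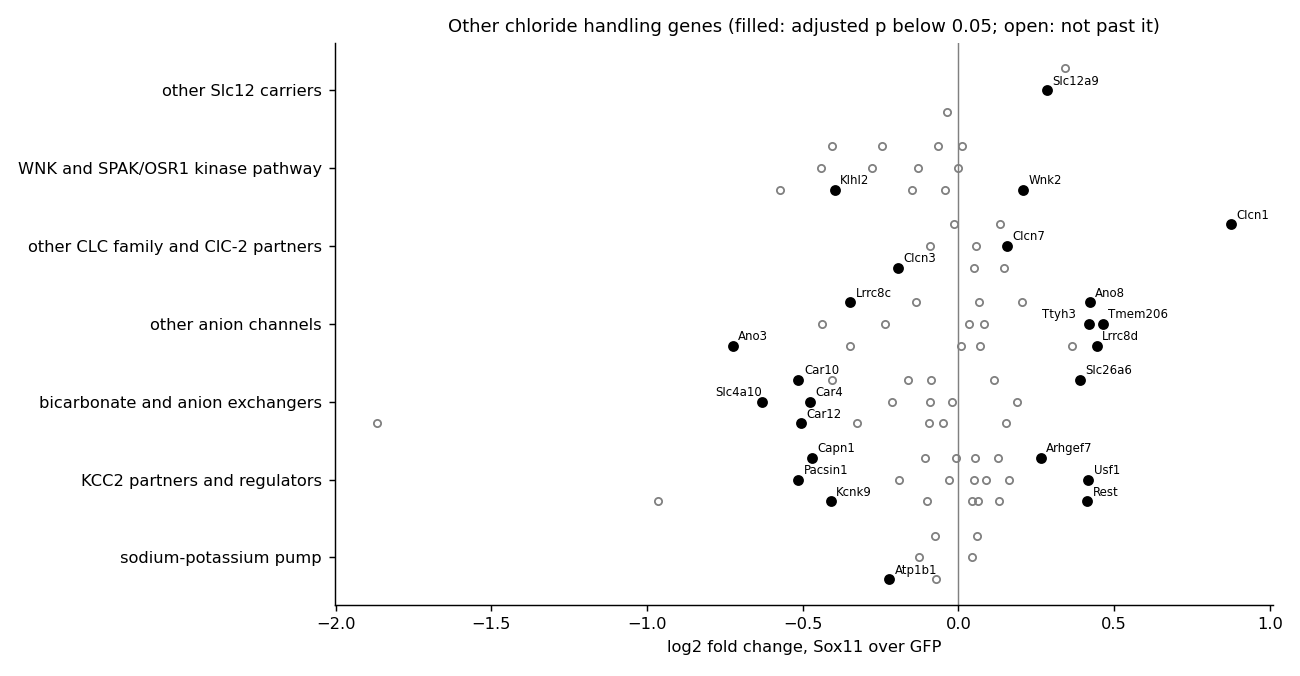
Log2 fold change of Sox11 over GFP libraries (horizontal axis) for the 86 tested genes of the 7 lists, 1 band of points per list, with genes past the adjusted p threshold of 0.05 filled and named. The filled points, 12 on either side of 0, reach 0.87 (Clcn1) and -0.72 (Ano3), and the open point farthest left is Slc4a5 (-1.87), which is also on the choroid plexus list.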

How the data were processed

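Per the labels' protocols, mRNA was selected from microdissected dentate gyrus and made into stranded libraries. The submitters' processing notes name GRCm38, R 3.3.1 with DESeq2 1.12.3, featureCounts 1.5.1 and Subread, STAR 2.5.2a, bcl2fastq 1.8.4 and cutadapt 1.9.1, with no order or role. The authors deposited 1 table of normalized counts, a signal of read counts divided by a factor per library. Every value was a whole multiple of its library's value of 1 read (tolerance 0.01), so whole reads were recovered. Table columns were assigned to groups only, since their numbers differ from those of the titles. That the samples came from separate mice is per the labels.

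Genes with a mean of at least 10 were fitted on the scale log2(normalized count + 1), where fold changes of low genes come out too small, with limma 3.58.1 (trend, robust) in R 4.3.3, and p-values were adjusted over all 17007 genes by Benjamini-Hochberg. Symbols, coordinates and lengths came from GENCODE M21, which matched 48058 identifiers; 1 listed chloride symbol and 1 listed marker had no match. Named were the members, the 3 genes most like each, and every chloride-list gene past the threshold, or the lowest p of a list with none; any other gene named was chosen after its values were seen. The members and lists were chosen with earlier results of these data known. Of the 31-base words of each member, at least 99.7% were unique to that gene. The fit was tested on simulated data. Alternatives tried were leaving out each library, library numbers as a block, a covariate or a division, count models on the recovered reads (limma-voom, DESeq2 1.42.0, edgeR 4.0.16), limma with neither trend nor robust, TMM scaling, a filter at 50 or none, and pseudocounts of 8 and 0.5. Deviations of the libraries sharing the numbers 1, 3 and 6 from their group means had correlations of 0.21, 0.15 and 0.47, so blocked values are given; number 1 alone paired best with itself, and no label ties the numbers to a litter, batch or day. Tables and plots were made in Python 3.11.15 (pandas 2.3.3, matplotlib 3.10.9).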

Additional observations from a re-analysis of the deposited data

Results flagged for a closer look

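In the GFP group, GFP 3 stood far from the other 4 libraries for Slc12a2, with 7602 normalized counts and a gap to the nearest library of 0.843 of the group's range. The same library stood apart for Slc12a4, with 2067 normalized counts and a gap of 0.803 of the range. The critical value of Dixon's test for 5 values is 0.710, 12 groups of values were tested in this way, and chance marks about 1 in 20. GFP 3 also held 398133 normalized counts of choroid plexus markers; the part of these in either value was not tested.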

How the results depend on the processing

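Over 10 fits that each left out a library, the log2 fold change lay between -0.36 and -0.26 for Slc12a5, 0.23 and 0.28 for Clcn2, -0.62 and -0.17 for Slc12a2, -0.051 and 0.19 for Slc12a4, and -0.13 and 0.18 for Slc12a7. Slc12a4 and Slc12a7 changed sign in some, and no call among the 5 members changed. Of all genes 1280.0 to 1569 were higher and 1175 to 1699 lower, and of the chloride lists 10 to 12 higher and 8 to 15 lower. The log2 difference of the ratio of Slc12a2 to Slc12a5 lay between -0.33 and 0.20.

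Over 13 other settings, Slc12a2 kept its direction and its side of the threshold. Slc12a5 did so in 11, and missed the threshold in libraries 1 to 3 alone (-0.18) and with the replicate block (-0.23). Clcn2 did so in 10, and missed it in libraries 1 to 3 alone (0.28), in those numbered 4 and above alone (0.19) and with the replicate block (0.24). Slc12a4, never past the threshold, reversed to -0.031 in DESeq2, -0.021 in edgeR, -0.051 with the division as a covariate, -0.29 in libraries 1 to 3 alone and -0.17 with the replicate block. Slc12a7 reversed to 0.00087 with TMM scaling and 0.033 in limma-voom. In libraries 1 to 3 alone 589 genes were higher and 424 lower, 6 and 3 of them in the chloride lists. With the replicate block 45 genes were higher and 4 lower, 0 and 1 in the lists. That block and those parts rest on 6 and 5 libraries. Where a p missed the threshold, equal levels are not shown; the spread between 5 mice a group sets the intervals, and for Slc12a2, Slc12a4 and Slc12a7 they are wide.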
